A study of Mus musculus with 20 samples.

Results

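The circadian clock genes were described here in the livers of mice given benzo(a)pyrene (BaP), a combustion product that is converted in the body to DNA-binding metabolites, for 28 days. The members were 10 genes, *Arntl* (also called *Bmal1*), *Npas2*, *Per1*, *Per2*, *Per3*, *Cry1*, *Nr1d1*, *Nr1d2*, *Dbp* and *Tef*, out of 16535 genes that the array named, and they were taken as all probes whose accession belonged to these symbols. Male Muta™Mouse animals (transgenic mouse strain 40.6, aged 25 weeks) received by daily gavage olive oil alone or BaP in olive oil at 25, 50 or 75 mg/kg/day, with 5 mice in each of the 4 groups, and the mice were killed 3 days after the last dose. Exposed and control animals carried the same transgene, a bacterial reporter for scoring mutations, and received the same vehicle. Liver RNA (Cy5) was compared on each array with a universal mouse reference RNA from 11 cell lines (Cy3), so that a log2 ratio is the liver level relative to that reference. The series' design text writes 24 mg/kg for the lowest dose, where the sample labels write 25. The time of day at which each mouse was killed is not given in the labels or the methods, which name only a light and dark cycle and free access to food.

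The clock is a feedback loop that runs once a day in nearly every cell. ARNTL, paired with CLOCK or its relative NPAS2, binds E-box sequences and drives the *Per*, *Cry*, *Nr1d1*, *Nr1d2*, *Dbp* and *Tef* genes; PER and CRY proteins then block this pair, and the nuclear receptors NR1D1 and NR1D2 repress *Arntl* and other genes through RORE sequences. In mouse liver, *Arntl* RNA therefore peaks at nearly the opposite time of day from *Dbp* and *Nr1d1*, and DBP and TEF pass the rhythm to metabolic genes through D-box sequences.

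The windows printed here show, in capitals, the binding motifs of the loop found just before the start of 5 members, since these motifs are how one clock gene acts on another. They were read 5′ to 3′ along the gene's strand from the RefSeq promoter table (build GRCm38.p6, 250 bases before to 50 after each start), which held 12 promoters for 9 of the 10 genes. Motifs were searched on both strands as CACGTG (E-box), CACGTT (E′-box), TTATGTAA or TTACGTAA (D-box) and TAGGTCA or TGGGTCA (RORE), which do not overlap in these windows.
Per1, chr11:69098763-69098808, plus strand: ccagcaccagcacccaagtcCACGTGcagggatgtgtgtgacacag
Cry1, chr10:85185089-85185153, minus strand: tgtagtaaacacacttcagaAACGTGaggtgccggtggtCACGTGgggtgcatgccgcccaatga
Nr1d1, chr11:98775380-98775425, minus strand: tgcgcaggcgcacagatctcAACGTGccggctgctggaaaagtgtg
Tef, chr15:81802526-81802571, plus strand: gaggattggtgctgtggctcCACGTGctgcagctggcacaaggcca
Tef, chr15:81811256-81811301, plus strand: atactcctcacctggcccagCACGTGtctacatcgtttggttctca
Per3, chr4:151044796-151044890, minus strand: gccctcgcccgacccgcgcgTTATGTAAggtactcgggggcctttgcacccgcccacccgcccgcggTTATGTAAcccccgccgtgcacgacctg

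An E-box began 166 bases before 1 of the 2 *Per1* starts, 60 before the *Cry1* start, and 127 and 138 before the starts of the *Tef* promoters. The other *Per1* promoter held none of these motifs. Of all 32851 promoters, 7.15% held an E-box. The E′-box, found 79 bases before *Cry1* and 28 before *Nr1d1*, was in 4.68% of promoters. The D-box was found at 205 and at 158 bases before *Per3* and was in 1.06% of promoters. One RORE lay 30 bases after an *Arntl* start, and 6.45% of promoters held that motif. These letters were not found in the windows of *Dbp*, *Nr1d2* and *Npas2*, which says nothing of sites elsewhere in those genes. A match describes the sequence and not a measured binding site.

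The 10 genes had 16 probes, of which 14, for 9 genes, passed the study's presence rule (brighter than the negative control spots on at least 4 of 5 arrays of a group), as did 27346 of 41174 probes in all. The single *Npas2* probe and the second *Cry1* probe (A_52_P420500) were well above background on 1 of 20 arrays each and were not tested. *Npas2* values ranged from -0.30 to 0.33 over the 20 arrays, where no level can be read. The brightest present probe stands for each gene, and of these the *Per3* probe was well above background on 14 arrays and the *Cry1* probe on 15, the other 7 on 20. For *Per3* these arrays were 2 of 5 controls, and 5, 3 and 4 of 5 at 25, 50 and 75 mg/kg/day. Liver-channel spots well above background made up 51.9% to 67.5% of an array, highest in control replicate 4, and arrays of one group correlated across present probes at r between 0.93 and 0.98. The labels name liver in one field and lung in another. Of 8 hepatocyte markers, 6 had a probe and all 6 were present, with a list mean log2 ratio of 4.39 to 5.62 per control array, and 5.12 to 5.6 per exposed array. Of 6 lung epithelium markers, the surfactant genes *Sftpb* and *Sftpc* were not present, while *Sftpd* (well above background on 19 arrays), *Sftpa1* (16), *Scgb1a1* (5) and *Ager* (1) were. Their list mean was 0.01 to 0.53 per control array and 0.30 to 0.78 per exposed array. *Sftpd* had log2 fold changes against controls of 0.63, 0.31 and 1.19 at 25, 50 and 75 mg/kg/day (adjusted p = 0.636, 0.850 and 0.0688 by limma). The arrays lay on 6 slides, and slides are given as a batch where they bear on a value. All 5 arrays at 25 mg/kg/day lay at position 2 of a slide, with control replicate 2, and the other controls at position 1. All 5 at 75 mg/kg/day lay at position 4, with replicate 13 at 50, and the other arrays at 50 at position 3. No control lay at position 3 or 4, so position and dose cannot be told apart against controls at 50 and 75 mg/kg/day. At 25 mg/kg/day only control replicate 2 shared the position of the exposed arrays, so position and dose are nearly confounded there too. In whole-liver RNA, fewer cells of a type and less RNA per cell cannot be told apart.

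*Arntl*, the positive arm of the loop, varied more within each group than the group means differed. Its log2 ratios in control replicates 1 to 5 were 1.33, -0.18, 0.09, 1.47 and 1.20. At 25 mg/kg/day (replicates 6 to 10) they were 0.17, -1.24, 0.97, -0.46 and 0.76, at 50 (replicates 11 to 15) -0.35, 0.48, 0.14, -0.44 and 1.29, and at 75 (replicates 16 to 20) -0.04, 1.22, -0.13, 1.29 and -0.39. Every group held both high and low livers, and the groups overlapped. Against controls, *Arntl* had log2 fold changes of -0.74 (25 mg/kg/day, 95% interval -1.68 to 0.20), -0.56 (50, interval -1.50 to 0.39) and -0.39 (75, interval -1.33 to 0.55), and none of the 3 differences passed limma's test (adjusted p = 0.692, 0.852 and 0.790).

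*Dbp*, a D-box activator driven directly by the ARNTL pair, showed the widest range of the 10 genes, 13.8-fold from the lowest to the highest liver. Its log2 ratios were -0.26, 0.90, 0.73, -1.96 and -1.54 in control replicates 1 to 5. They were 1.21, 1.83, -0.16, 1.19 and 0.23 at 25 mg/kg/day, 1.06, 0.71, 1.33, 1.55 and -1.10 at 50, and 1.09, -0.88, 1.44, -1.05 and 1.68 at 75. At each dose 3 of 5 exposed livers lay above all 5 controls, and the others lay among the controls. Its log2 fold changes were 1.29 (25 mg/kg/day, 95% interval -0.05 to 2.63), 1.14 (50, interval -0.20 to 2.48) and 0.88 (75, interval -0.46 to 2.22), that is 2.44-, 2.20- and 1.84-fold higher means, with adjusted p = 0.649, 0.781 and 0.637 by limma. The intervals still admit more than 4-fold higher levels at each dose (upper limits 6.18-, 5.57- and 4.67-fold), so the test does not show that *Dbp* was alike in the groups. Within single slides holding both a control and an exposed liver, the *Dbp* difference was positive on 3 of 3 slides at 25 mg/kg/day (0.49 to 3.15), on 4 of 4 at 50 (0.21 to 3.09) and on 3 of 3 at 75 (1.07 to 2.98). On slides 1 to 3 a single control liver served all 3 doses, and on slides 1 and 2 it was replicate 4 or 5, which had the lowest *Dbp* of the 20 livers, so these signs are not independent of each other. Without control replicate 4 the log2 fold changes of *Dbp* were 0.91, 0.75 and 0.50.

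*Tef*, the relative of *Dbp* that binds the same D-box, had log2 ratios of 0.65, 1.11, 1.36, -0.30 and -0.28 in controls and 1.1, 1.96, 0.71, 1.33 and 0.94 at 25 mg/kg/day. They were 1.24, 1.21, 1.09, 1.28 and 0.26 at 50, and in the highest dose group 1.30, 0.61, 1.5, 0.37 and 1.51. The same control livers, replicates 4 and 5, were lowest for *Tef* and for *Dbp*, and every dose overlapped the controls. *Tef* was higher by a log2 fold change of 0.70 (95% interval 0.02 to 1.38), 0.51 (-0.17 to 1.18) and 0.55 (-0.13 to 1.22) at the 3 doses, with adjusted p = 0.639, 0.791 and 0.541 by limma, and by 0.50, 0.31 and 0.34 without control replicate 4. The dimmer *Tef* probes differed from controls by 0.08, 0.11 and 0.00 (A_51_P450561) and by 0.27, 0.27 and 0.26 (A_52_P173309). Probe A_52_P173309 was well above background on only 2 of 5 control arrays, and on 5, 4 and 4 arrays at the 3 doses.

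**Figure D1:**
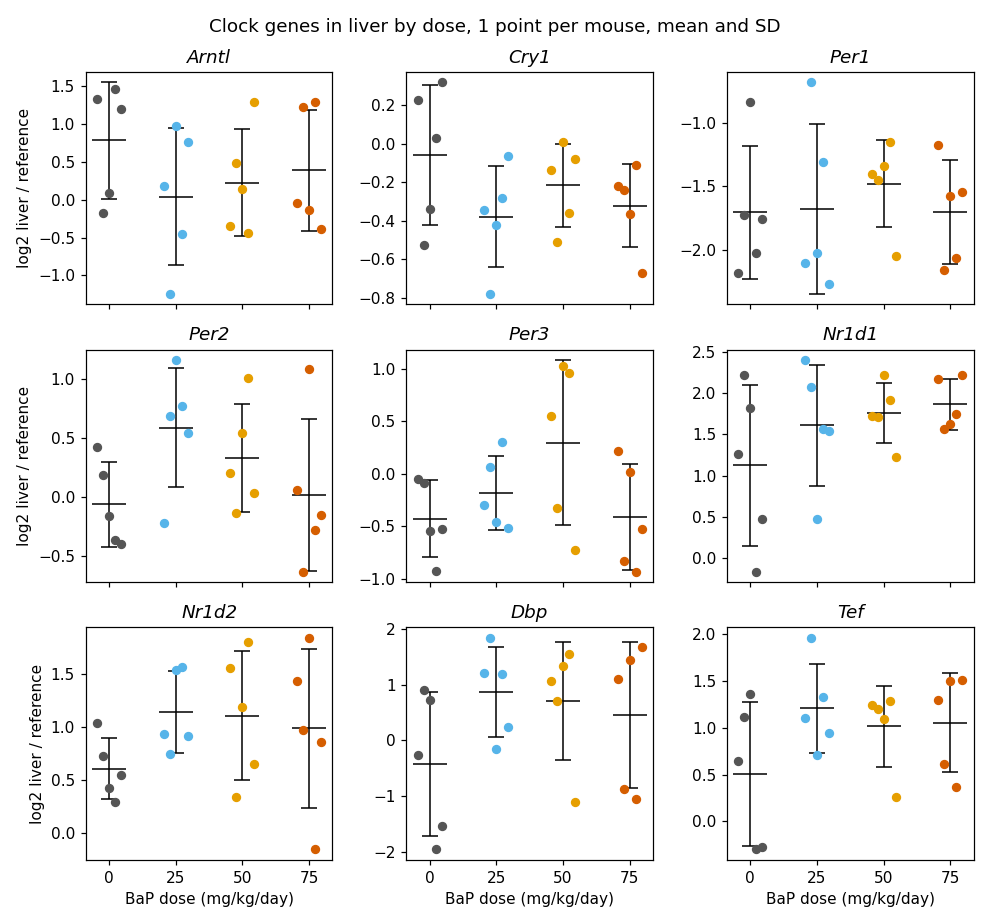
Log2 ratio of liver to reference RNA (vertical axes, each with its own range) against BaP dose for the brightest probe of 9 clock genes. Each point is 1 mouse, and the bar and whiskers are the group mean and SD (n = 5). In all 9 panels each exposed group overlaps the controls, and *Dbp* spans -1.96 to 1.83.

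Among the repressors, *Nr1d1*, which encodes REV-ERB alpha, had control log2 ratios of 1.27, 2.22, 1.82, -0.17 and 0.48. Exposed livers read 2.40, 2.07, 0.47, 1.57 and 1.54 at 25 mg/kg/day, 1.73, 1.71, 2.22, 1.92 and 1.23 at 50, and 2.17, 1.57, 1.62, 1.75 and 2.22 at 75. The controls were the most spread, with replicates 4 and 5 low, and the 75 mg/kg/day livers lay close together at the upper end of the control range. The SD was 0.97 in controls and 0.31 at 75 mg/kg/day (n = 5 each), and the difference in spread was not tested. The log2 fold change was 0.49 ± 0.37 (SE), 0.64 ± 0.37 and 0.74 ± 0.37 at the 3 doses, with adjusted p = 0.753, 0.781 and 0.465 by limma. Without control replicate 4, the lowest liver, it was 0.17, 0.32 and 0.42. A second *Nr1d1* probe (A_52_P130952) was higher by 0.24, 0.28 and 0.35, and the third (A_52_P130961) lower by -0.06, -0.15 and -0.10, so the probes did not give one direction.

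*Nr1d2*, for REV-ERB beta, read 1.04, 0.72, 0.42, 0.29 and 0.54 in controls. At 25 mg/kg/day it read 0.93, 0.74, 1.54, 1.56 and 0.91, at 50 it read 1.55, 0.33, 1.19, 1.80 and 0.65, and at 75 it read 1.44, 0.97, 1.84, -0.16 and 0.85. The middle dose had 3 of 5 livers higher than every control, and the lowest liver of all was in the 75 mg/kg/day group. The log2 fold changes of 0.53, 0.50 and 0.38 (SE 0.31) did not pass the test (adjusted p = 0.675, 0.782 and 0.680 by limma).

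The period genes, whose proteins with CRY close the negative arm, followed no common course over the groups. *Per1* had nearly equal group means, -1.71 ± 0.52 (SD, n = 5) in controls and -1.68 ± 0.67, -1.48 ± 0.34 and -1.70 ± 0.41 at 25, 50 and 75 mg/kg/day, with log2 fold changes of 0.03, 0.23 and 0.00. *Per2* had a mean of -0.06 ± 0.36 in controls and 0.59 ± 0.50 at 25 mg/kg/day, where 4 of 5 livers exceeded every control and the other did not, then 0.33 ± 0.45 and 0.02 ± 0.64 at the higher doses. The difference there was 0.65 on the log2 scale (95% interval 0.05 to 1.25, unadjusted p = 0.0356, adjusted p = 0.636 by limma), while the dimmer *Per2* probe (A_52_P536869) was lower, -0.19 there. *Per3* had means of -0.43 ± 0.36 in controls and -0.18 ± 0.35, 0.30 ± 0.79 and -0.41 ± 0.51 at the 3 doses. At 50 mg/kg/day its livers were split between 0.55, 1.03 and 0.96 on one side and -0.33 and -0.72 on the other, for a log2 fold change of 0.72 (95% interval 0.09 to 1.36, adjusted p = 0.720 by limma). This dim probe was well above background on only 2 of 5 control arrays. It depended on the signal used, with fold changes of 1.03, 1.51 and 0.40 from the scanner-processed signals in place of 0.24, 0.72 and 0.02. *Cry1*, whose RNA peaks later in the day than that of the period genes, was lower by -0.32 at 25 mg/kg/day, -0.16 at 50 and -0.26 at 75 (SE 0.16), from a control mean of -0.06 ± 0.36, with adjusted p of 0.649, 0.886 and 0.560 by limma.

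**Figure D2:**
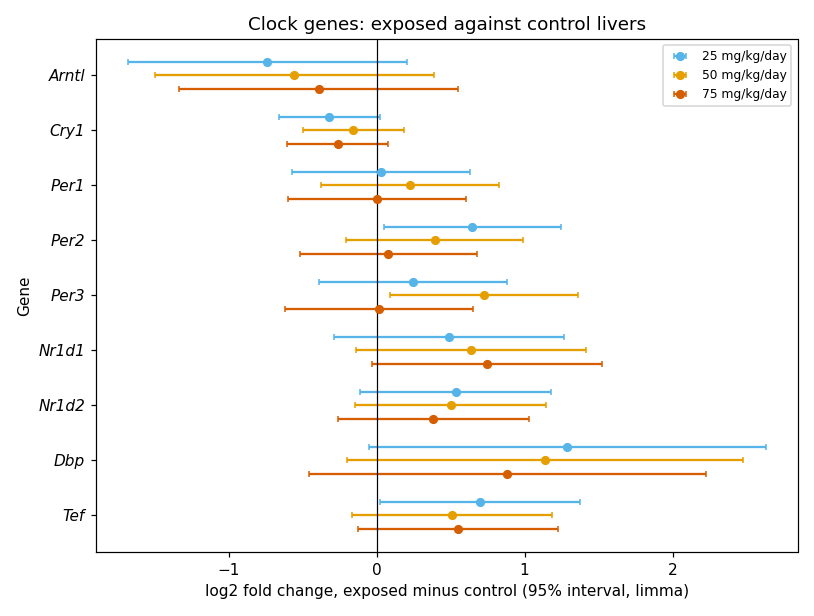
Log2 fold change of exposed over control livers (horizontal axis) for the brightest probe of 9 clock genes at 25, 50 and 75 mg/kg/day, from limma over 20 arrays. Points are estimates and bars 95% intervals; 24 of the 27 intervals include 0, and the others are *Per2* and *Tef* at 25 mg/kg/day and *Per3* at 50 mg/kg/day.

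Over all 14 present probes, 0 were called at any dose (fold change over 1.5 with a limma adjusted p under 0.05). Among all present probes 0% were called at 25 mg/kg/day, 0% at 50 and 0.135% at 75. At an unadjusted p under 0.05 there were 2 of 14 clock probes at 25 mg/kg/day against 7.81% of all present probes, 1 at 50 against 6.7% and 0 at 75 against 11.2%. No clock probe had 5 exposed livers beyond all 5 controls at any dose, which 1.22%, 0.823% and 1.52% of present probes had at 25, 50 and 75 mg/kg/day. The F-test over the 4 groups called 0 of 14, against 0.0805% of all probes (0 of 14 at an unadjusted p under 0.05, against 8.23%), and the dose trend called 0 of 14, against 0.157% (1 of 14 unadjusted, *Nr1d1*, against 8.58%). At each dose 10 of 14 clock probes were higher and 4 lower than in controls, with a median log2 fold change of 0.24, 0.27 and 0.05, beside medians of 0.000883, -0.00321 and 0.00249 over all present probes. The exposed groups share the same 5 controls, so these counts and medians are not independent of each other. Nor are the 14 probes, since some belong to the same gene and the genes varied together between livers. With the slide as a block, 5, 3 and 3 clock probes had an unadjusted p under 0.05 at 25, 50 and 75 mg/kg/day, against 9.83%, 11.2% and 13.1% of all probes, and the smallest adjusted p were 0.371, 0.401 and 0.252.

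The clock genes varied widely between mice of one group, which is given here as a description. The SD within groups was 1.14 for *Dbp*, which is 2.20-fold per SD, and 0.80 for *Arntl*, against a median of 0.22 over all present probes. These placed *Dbp* at the 99.7th and *Arntl* at the 99.3rd percentile of present probes, and at the 99.4th and 98.8th among probes of like intensity. *Nr1d1* (SD 0.65), *Tef* (0.57), *Nr1d2* (0.54), *Per3* (0.53), *Per1* (0.50) and *Per2* (0.50) also lay above the 90th percentile, 8 of 14 clock probes in all, and *Cry1* (0.27) at the 70.3rd. The 6 remaining probes below it were *Cry1* and the 5 dimmer probes of *Per2*, *Nr1d1* and *Tef*. Group membership took up 12.8% of the variance of *Arntl* and 19.3% of that of *Dbp*, near the 15.4% of the median probe, and slide took up 16.9% and 31.5%, below the 40.2% of the median probe. For *Nr1d1* and *Nr1d2* slide took up 47.0% and 44.2%, above the median probe. For the brightest probes of *Per3*, *Per1*, *Tef*, *Per2* and *Cry1* it took up 20.0%, 21.0%, 24.4%, 31.1% and 31.2%. On slide 1, which held 1 liver of each group, *Dbp* ran from -1.96 (control replicate 4) to 1.19 (replicate 9 at 25 mg/kg/day). That range crosses dose groups and is not a spread within 1 group.

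**Figure D3:**
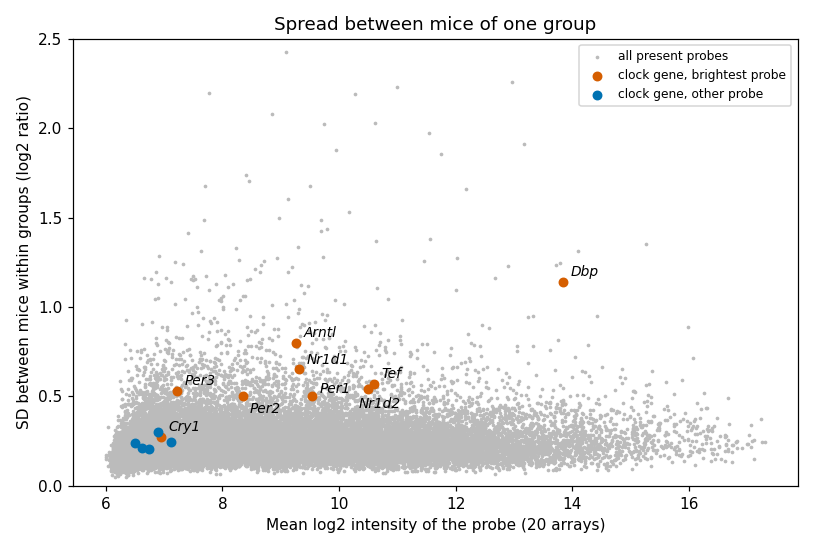
SD of the log2 ratio between mice within groups (vertical axis) against the mean log2 intensity of a probe (horizontal axis) for 27346 present probes in grey, with the brightest clock probes in orange and the other clock probes in blue; 5 probes lie above the top of the axis. *Dbp* (1.14) and *Arntl* (0.80) lie above nearly all probes of like intensity.

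Livers that were high for *Arntl* were low for *Dbp*, *Tef* and *Per1*. After removal of group means, *Dbp* ran against *Arntl* over the 20 livers with Pearson's r = -0.91 (permutation p = 1e-05) and Spearman's rho = -0.91 (permutation p = 1e-05), the smallest p that 100000 permutations within groups can give. *Tef* followed with r = -0.89 (permutation p = 2e-05) and rho = -0.89, and *Per1* with r = -0.84 (permutation p = 0.00012) and rho = -0.80 (permutation p = 0.00029). In a limma fit over all present probes with *Arntl* beside the groups, these 3 genes passed Benjamini-Hochberg adjustment over 27345 probes, with adjusted p of 0.000133 for *Dbp*, 0.00079 for *Tef* and 0.00835 for *Per1*, so that 3 of 13 clock probes were called against 0.157% of all probes. Per log2 unit of *Arntl*, *Dbp* was lower by -1.30 ± 0.14 (SE), *Tef* by -0.63 ± 0.08 and *Per1* by -0.53 ± 0.08.

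With *Arntl*, 8 relations were computed in all. *Per3* gave r = -0.68 (permutation p = 0.00171) and rho = -0.60 (permutation p = 0.00892). *Nr1d1* gave r = -0.66 (permutation p = 0.00432) and rho = -0.73 (permutation p = 0.00134), and *Cry1* was the one member to move with *Arntl*, r = 0.66 (permutation p = 0.00472) and rho = 0.66 (permutation p = 0.005). These 3 did not pass over all probes (limma adjusted p = 0.180, 0.203 and 0.291). *Per2* (r = -0.34, permutation p = 0.194, rho = -0.34, permutation p = 0.175) and *Nr1d2* (r = -0.36, permutation p = 0.146, rho = -0.34, permutation p = 0.176) did not pass the test (limma adjusted p = 0.725 and 0.710), which does not show that they were unrelated to *Arntl*. Of the dimmer probes, those of *Per2* (r = 0.19) and the third of *Nr1d1* (0.36) ran with *Arntl*. The second *Nr1d1* probe (-0.58) and the dimmer *Tef* probes (-0.68 and -0.74) ran against it.

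Leaving out the 2 livers farthest from the median of *Arntl* after removal of group means (replicate 7 of the low dose and replicate 15 of the middle dose) gave r = -0.91 for *Dbp*, -0.84 for *Tef*, -0.75 for *Per1*, -0.62 for *Per3*, -0.63 for *Nr1d1* and 0.58 for *Cry1*. A slide held at most 4 arrays, too few for a correlation within it. With slide and group means both removed, r with *Arntl* was -0.95 for *Dbp*, -0.90 for *Tef*, -0.86 for *Per1*, -0.73 for *Per3*, -0.64 for *Nr1d1*, 0.64 for *Cry1* and -0.49 for *Per2*, and that of *Nr1d2* was -0.77 instead of -0.36. Among the members of the opposite phase, with group means alone removed, *Dbp* and *Tef* correlated at 0.95 and *Dbp* and *Nr1d1* at 0.78. *Nr1d2* correlated at 0.72 with *Per3*, at 0.70 with *Per2* and at 0.02 with *Nr1d1*. Slide was left in these values, and it took up 44.2% of the variance of *Nr1d2* and 47.0% of that of *Nr1d1*. The share of spots well above background correlated with *Arntl* at 0.17 and with *Dbp* at -0.25 over the 20 arrays.

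**Figure D4:**
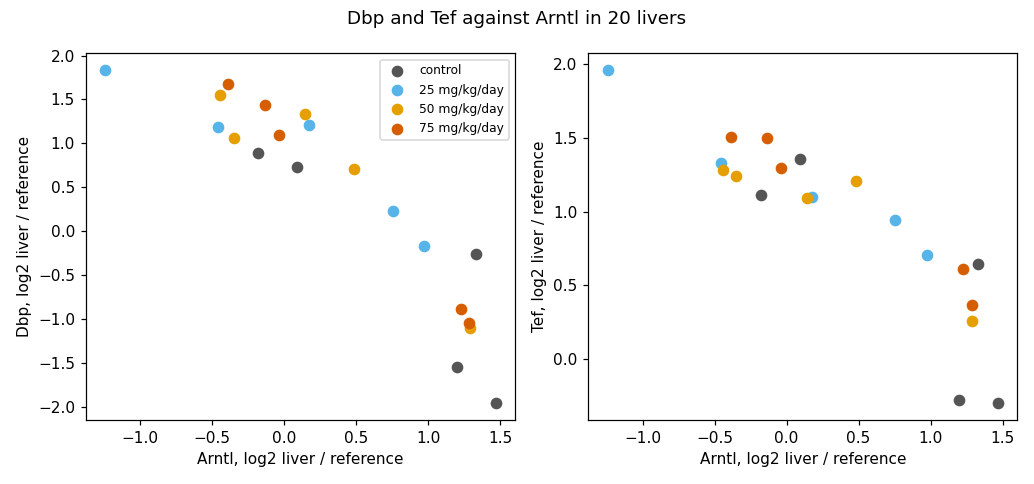
Log2 ratio of *Dbp* (left) and *Tef* (right) against that of *Arntl* in 20 livers, 1 point per mouse, coloured by dose group. The points follow one descending course, with r after removal of group means of -0.91 and -0.89, and every group has livers with *Dbp* above and below 0.

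The relation ran through all 4 groups. The liver with the highest *Arntl* was the one with the lowest *Dbp* in controls (replicate 4), at 25 mg/kg/day (replicate 8), at 50 mg/kg/day (replicate 15) and at 75 mg/kg/day (replicate 19), and the liver with the lowest *Arntl* had the highest *Dbp* in each (replicates 2, 7, 14 and 20). *Dbp* was below 0 in 7 livers, and these were the 7 with the highest *Arntl* (0.97 or more, against 0.76 or less in the other 13). They comprised 3 controls, 1 liver at 25 mg/kg/day, 1 at 50 and 2 at 75, so 3 of 5 controls and 4 of 15 exposed livers. The clock contrast, the mean of centred *Arntl* and *Npas2* minus that of *Dbp*, *Tef*, *Per3*, *Nr1d1* and *Nr1d2*, puts each liver on this course as one log2 value. It ran from -0.39 to 1.95 in controls (median 0.82), from -1.36 to 0.59 at 25 mg/kg/day (median -0.40), from -1.20 to 1.18 at 50 (median -0.76) and from -0.86 to 1.26 at 75 (median -0.76). Without *Npas2*, whose probe was not present, it ran from -0.77 to 2.46 in controls (median 1.19), from -2.19 to 0.94 at 25 (median -0.51), from -1.56 to 1.61 at 50 (median -0.85) and from -1.15 to 1.67 at 75 (median -0.90). The contrast was positive in 3 of 5 controls and in 2 of 5 livers at each dose, with or without *Npas2*. Whether the mice were killed at different times of day was not tested, since no time is given.

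**Figure D5:**
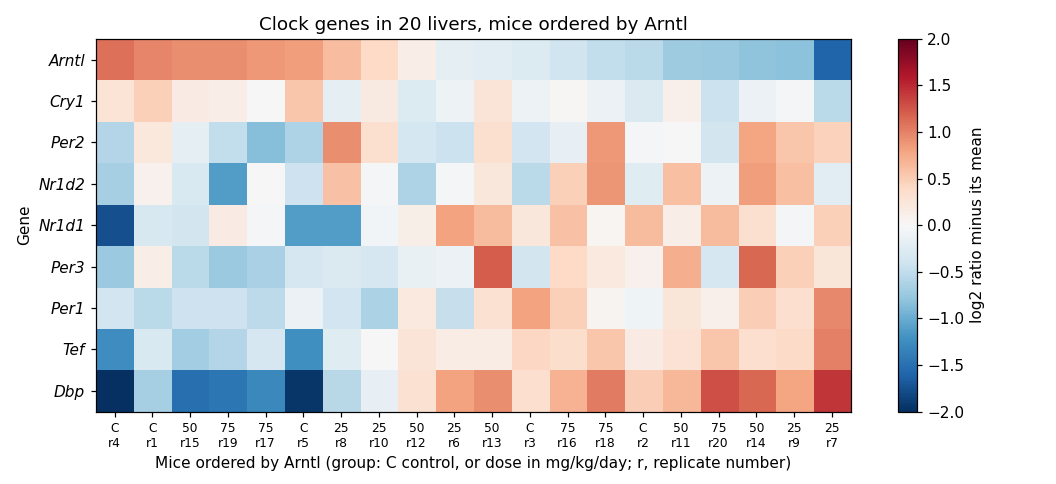
Log2 ratio minus its mean over 20 arrays (colour, limits -2 to 2) for 9 clock genes (rows) in 20 livers (columns) ordered from the highest to the lowest *Arntl*. *Dbp*, *Tef* and *Per1* turn from blue to red where *Arntl* turns from red to blue.

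Further genes of the loop and its outputs were read from lists. Of 14 further core clock genes, 0 were called at any dose by limma, against 0%, 0% and 0.135% of all present probes at 25, 50 and 75 mg/kg/day. At an unadjusted p under 0.05 by limma there were 0, 2 and 0, against 7.81%, 6.7% and 11.2% of all present probes. At these doses 8, 8 and 7 were higher than in controls, with median log2 fold changes of 0.05, 0.05 and -0.01. The smallest overall F p among them belonged to *Cry2*, a partner of *Cry1* (log2 fold change 0.14, 0.35 and 0.00 at the 3 doses), followed by *Hlf*, another D-box activator (0.19, -0.06 and -0.30), *Nfil3*, the D-box repressor (-0.44, -0.71 and -0.70), and *Clock* (0.04, -0.31 and -0.05). Across livers, with group means removed, 5 of the 14 correlated with *Arntl* beyond 0.6 in size, which 2.05% of 12800 other genes did. *Nfil3* (0.86) and *Clock* (0.71) ran with *Arntl*, and *Ciart* (-0.78), *Cry2* (-0.77) and *Bhlhe40* (-0.76), all repressors of the ARNTL pair, ran against it. *Hlf* had r = -0.08, unlike its relatives *Dbp* and *Tef*.

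Of 16 known rhythmic liver genes, 0 were called at any dose by limma, against 0%, 0% and 0.135% of all present probes at 25, 50 and 75 mg/kg/day. At an unadjusted p under 0.05 by limma there were 1, 2 and 1, against 7.81%, 6.7% and 11.2% of all present probes. Means were higher than in controls for 14, 13 and 14 of them, with median log2 fold changes of 0.28, 0.17 and 0.33, beside -0.01, -0.01 and 0.00 over all genes tested. Hepatocyte markers also had higher means, 6 of 6 at each dose with medians of 0.31, 0.25 and 0.39. Of these 6 markers 0, 0 and 4 had an unadjusted p under 0.05 by limma, against 7.81%, 6.7% and 11.2% of all present probes. Higher too were endothelial markers (5, 6 and 6 of 6, medians 0.36, 0.29 and 0.44), Kupffer markers (5, 5 and 6 of 6, medians 0.21, 0.16 and 0.10) and lung epithelium markers (3, 4 and 4 of 4, medians 0.07, 0.22 and 0.10). Of 5 lymphocyte markers 2, 1 and 2 were higher. At an unadjusted p under 0.05 by limma there were 3, 2 and 3 of 6 endothelial and 0, 1 and 1 of 6 Kupffer markers. Lung epithelium markers gave 1, 1 and 1 of 4, and lymphocyte markers 1, 0 and 1 of 5. The part of these marker lists in the values of the rhythmic genes was not tested. The rhythmic genes with the smallest overall F p were *Lpin1*, a phosphatidate phosphatase (0.29, 0.62 and 0.56), *Upp2*, a uridine phosphorylase (0.42, 0.64 and 0.47), *Usp2*, a deubiquitinase (0.82, 0.63 and 0.56), *Noct*, a phosphatase also called nocturnin (0.13, -0.20 and 0.37), and *Cyp2a5* (0.45, 0.38 and 0.38). In 7 of the 16 r with *Arntl* passed 0.6 in size, which 2.05% of 12800 other genes did. Among the 7 were *Usp2* (-0.90), *Rgs16* (-0.70), *Alas1*, the first enzyme of heme synthesis (-0.70), *Por* (-0.67), *Lpin1* (-0.64) and *Insig2* (0.69). *Cyp7a1*, the rate-limiting enzyme of bile acid synthesis, did not run with *Arntl* (-0.01).

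Of 11 tested genes set by glucocorticoids and feeding, which also vary with the time of day, 0 had r with *Arntl* beyond 0.6 in size, against 2.05% of the other genes, but *Mt1* (-0.59) and *Angptl4* (-0.58) came close to that limit. Of these 11, 0 were called at any dose by limma, against 0%, 0% and 0.135% of all present probes at 25, 50 and 75 mg/kg/day. At an unadjusted p under 0.05 by limma there were 2, 2 and 4, against 7.81%, 6.7% and 11.2% of all present probes. *Mt2*, a metallothionein, was lower by -1.82, -1.99 and -2.17 with adjusted p of 0.636, 0.685 and 0.286, and *Tsc22d3*, a glucocorticoid-induced gene, by -0.40, -0.32 and -0.61. *Angptl4* differed by -0.04, -0.61 and -0.28, *Srebf1* by 0.10, 0.30 and 0.40, and *G6pc*, the glucose-releasing phosphatase, by 0.24, 0.19 and 0.34. Of the cell type markers measured, 0 of 6 hepatocyte, 0 of 6 endothelial, 0 of 6 Kupffer cell, 0 of 5 lymphocyte and 0 of 4 lung epithelium genes had r with *Arntl* beyond 0.6 in size, against 2.05% of the other genes. In lists this short 0 is near that share, so these counts do not show that the markers were unrelated to *Arntl*. The mean of each marker list correlated with *Arntl* at -0.15, 0.24, 0.30, 0.28 and 0.09, in that order. At 75 mg/kg/day 1 endothelial gene, *Lyve1*, and 1 Kupffer gene, *Marco*, were called higher, by 2.23 and 2.19 (adjusted p = 0.0189 and 0.00148 by limma), and their part in the clock values was not tested.

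Among 12800 non-member genes, those most like *Arntl* across the 20 livers, with group means removed, were *Celsr1* (r = 0.95), *Rnf125* (0.92), *Clpx* (0.91), *Pdk4* (0.91) and *Pnrc1* (0.91). *Pdk4* encodes the kinase that turns off pyruvate dehydrogenase in fasting, and *Clpx* a mitochondrial protease subunit. Those most opposed were *Mtss1* (-0.93), *Usp2* (-0.90), *Epha1* (-0.84), *Pfkfb3*, a regulator of glycolysis (-0.82), and *Klf9*, a glucocorticoid-responsive transcription factor (-0.82). With *Dbp* the highest were *Bhlhe40* (0.87), *Gpr146* (0.87), *Usp2* (0.85), *Herpud1* (0.85) and *Epha1* (0.83), and the lowest *Celsr1* (-0.95), *Dtx4* (-0.93), *Nfil3* (-0.92), *Pdk4* (-0.90) and *Slc45a3* (-0.86). Beyond 0.8 in size with *Arntl* were 14 genes on the positive and 10 on the negative side. *Pdk4* spanned -0.02 to 3.20 over the 20 livers, with an SD within groups of 0.94, and differed from controls by -0.66 at 75 mg/kg/day (adjusted p = 0.680 by limma). All these genes were measured on the same arrays as *Arntl* and *Dbp*, so they share the arrays' errors.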

How the data were processed

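Liver and reference RNA of 20 mice were hybridised to 2-colour Agilent arrays. The deposited scanner intensity values (Feature Extraction 10.1.1.1 per the file headers) were median spot signals, not normalised by the authors; the deposited log2 ratios had been LOWESS-normalised by the authors and correlated with the ratios used here at r of 0.994 to 0.996 per array (slopes 0.962 to 1.01, so scale and direction match). The marks for spots well above background, a score of 0 or 1, were deposited with the signals. Of 45018 features, 43379 were not controls. Median signals were background-corrected (normexp, offset 50) and normalised within arrays by loess in limma 3.58.1 (R 4.3.3), control spots having weight 0, and replicate spots were averaged to 41174 probes. Symbols were matched by accession to the RefSeq gene table for 23374 probes. The headers name another build (mm8), so no gene position was read from the arrays. A probe was present when above the trimmed mean (5%) plus 3 trimmed SDs of 153 negative control spots on 4 of 5 arrays of a group. The number of arrays limits the precision; no spot was saturated.

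Groups and replicate numbers came from the labels. Each dose was compared with controls by limma (lmFit, eBayes, two-sided, 95% intervals) on all 20 arrays, with Benjamini-Hochberg adjustment over present probes. The study used MAANOVA and left out 1 sample that is not named; all 20 were kept here. Relations with *Arntl* were tested by 100000 two-sided permutations within groups, and, as a fit added after seeing the data, by limma with *Arntl* as a covariate. The Benjamini-Hochberg adjustment over the relations that had been planned is not given, since members were chosen with results known. Samples are 1 mouse each. The fits and permutation tests were tested on simulated data. The named genes were the 10 members with every probe, any called gene plus up to 5 with the smallest F p from each gene list, and the 5 highest and 5 lowest non-member genes by r with *Arntl* and with *Dbp*; *Ciart*, *Bhlhe40*, *Rgs16*, *Alas1*, *Por*, *Insig2*, *Cyp7a1* and the markers were named after their values were seen. One gene that this rule named is not reported here. The members and lists were chosen with earlier results of these data known. Alternatives were no background correction, scanner-processed signals, the authors' ratios, other presence filters, slide as a fixed or random block, single-dose fits, the liver channel alone and leaving out each array. Python 3.11.15 was used for permutations and figures.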

Additional observations from a re-analysis of the deposited data

Results flagged for a closer look

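The *Tef* value of replicate 15 at 50 mg/kg/day stood apart from its group. Its log2 ratio was 0.256, the lowest of 5, with the nearest other liver at 1.09, so that the gap was 0.818 of the group's range. The same liver had the highest *Arntl* (1.29) and the lowest *Dbp* (-1.10) of its group. It was the only such value among 56 groups of 5 livers over the 14 present probes, and chance flags about 1 in 20 groups.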

How the results depend on the processing

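Under every alternative 0 of 14 clock probes were called at any dose by limma, and over 1206 refits of 42 fold changes the smallest adjusted p was 0.229 (the second *Nr1d1* probe at 75 mg/kg/day, without background correction). The sign changed in 37 of these refits, for 8 fold changes near 0, and the cause was not tested. For *Per1* it changed without background correction (-0.0076 at 25 and -0.043 at 75 mg/kg/day) and with the authors' ratios (-0.065 and -0.10), which also turned *Per3* at 75 mg/kg/day (-0.012). The third *Nr1d1* probe (A_52_P130961) turned to 0.32 and 0.24 at 25 and 75 mg/kg/day with scanner-processed signals and to 0.0063 at 25 with the authors' ratios, and the dim *Tef* probe (A_51_P450561) to -0.014 and -0.042 in the liver channel alone. Of the 27 fold changes of the brightest probes, 20 moved by over 1.5 times when 1 array was left out, 14 of them without control replicate 4, and 10 under another setting. Leaving out 1 array gave ranges across 0 for *Per1* (-0.22 to 0.25 at 25, -0.13 to 0.22 at 75 mg/kg/day), *Per2* (-0.19 to 0.24 at 75), *Per3* (-0.14 to 0.15 at 75), the third *Nr1d1* probe (-0.13 to 0.020 at 25) and the dim *Tef* probe (-0.0031 to 0.17 at 25, -0.078 to 0.092 at 75).

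Among the relations with *Arntl*, 6 of 8 had a permutation p under 0.05, and 3 passed in limma over all present probes, where *Per3* (-0.68), *Cry1* (0.66) and *Nr1d1* (-0.66) did not. Leaving out 1 array gave r of -0.93 to -0.89 for *Dbp*, -0.92 to -0.87 for *Tef* and -0.52 to -0.23 for *Nr1d2*, which passed (permutation p = 0.0423) only without replicate 7 at 25 mg/kg/day, so that 6 to 7 relations passed. With slide and group means removed *Nr1d2* moved to -0.77. By replicate number, no paired analysis was possible because the numbers run from 1 to 20 and no 2 groups share one; slide was used as a block and for differences within slides. Requiring a spot well above background on all 20 arrays left no value for *Per3*, *Cry1* and the dim probes that missed it. Few arrays, 5 per group, and the wide spread between mice limit what the dose comparisons can show.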
